A study of Ovis aries with 10 samples.

Results

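Circular RNAs (circRNAs) from genes named ZNF, ZFP, ZBTB, ZKSCAN or ZSCAN followed by a number were described in skeletal muscle samples of small-tailed Han sheep. A circRNA is a transcript closed by a junction that joins a downstream splice site back to an upstream one, and a junction read is a sequencing read that crosses this junction. Members were chosen by the first host gene symbol in the deposited circRNA list, with no measured value used. The rule gave 104 of 8721 circRNAs, from 48 of 3435 host genes. They held 7253 of 445393 junction reads, which is 1.63%.

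Libraries came from 2 groups of female sheep, 5 after sham surgery (sham, replicates 1 to 5) and 5 after removal of the ovaries (ovariectomized, replicates 1 to 5), in a study of the effect of estrogen on muscle. The labels give longissimus dorsi, a back muscle, as tissue, and also name primary myoblasts and an estradiol gradient in culture, but no library carries a dose, and age is not given in the sources used here. The labels do not say that replicates are separate animals, so every p-value measures only the spread between these libraries, which may be technical. Of 12 muscle fiber genes fixed as markers, 10 hosted circRNAs, against 2 of 7 myoblast and satellite cell genes (NCAM1 and DES, 5 junction reads together) and 0 of 4 proliferation genes. Of the markers of other cells, 3 of 4 endothelial, 0 of 4 fibroblast, 0 of 3 immune and 1 of 3 adipocyte genes were hosts. These markers were seen as circRNA hosts only, so they do not measure cell content. Fewer cells of a type and less RNA per cell cannot be told apart in bulk samples.

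Zinc fingers are small protein folds held by a zinc ion, and those of the C2H2 kind mostly bind DNA. Many zinc finger genes also encode a partner domain. KRAB domains recruit the corepressor TRIM28 and with it enzymes that set silencing histone marks. BTB domains, which give the ZBTB genes their name, form dimers and recruit corepressors such as NCOR1, and SCAN domains pair zinc finger proteins with each other. Some circRNAs of zinc finger genes, among them those of ZNF609, ZNF292 and ZKSCAN1, have been studied in muscle, vessels and liver. Not every gene with such a name is a classical C2H2 factor: ZNF451 encodes a ligase for the modifier SUMO, and ZNF330 encodes a nucleolar protein.

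By partner domain, 19 hosts were KRAB genes, 8 were BTB genes, 1 (ZSCAN30) had a SCAN domain without KRAB, and 20 had none of these. The domain classes come from general knowledge of these genes. KRAB genes were numerous and low: their 28 circRNAs held 924 junction reads, and 1 of the 19 hosts, ZNF568, passed the filter for testing. The 20 hosts without a partner domain gave 63 circRNAs and 6012 reads, and 8 passed. The 8 BTB hosts gave 12 circRNAs and 280 reads, and 2 passed, ZBTB40 and ZBTB25. The filter asked for at least 5 libraries with 10 or more reads scaled to the median library and a total of at least 15, so 11 of the 48 hosts were tested and 37 were not.

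Reads were concentrated in few genes. ZNF638 and ZNF280D held 49.0% of the junction reads of all 48 hosts, and these with ZNF532, ZNF148, ZNF568 and ZNF292 held 78.1%. Another 17 hosts had under 10 reads in all libraries together. In all 10 libraries 11 hosts were listed, 15 were listed in 2 to 4 libraries and 9 in 1 library. Of the host genes known from work on circRNAs that had been set down for a look, ZNF292, ZNF148, ZNF532, ZNF423, ZNF236, ZNF644 and ZBTB44 were listed. ZNF609, ZKSCAN1, ZBTB20, ZNF521 and ZNF407 were not listed as hosts in these libraries. A circRNA with 1 read in a library may be missing from the list, because the smallest listed count is 2.

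**Figure D1:**
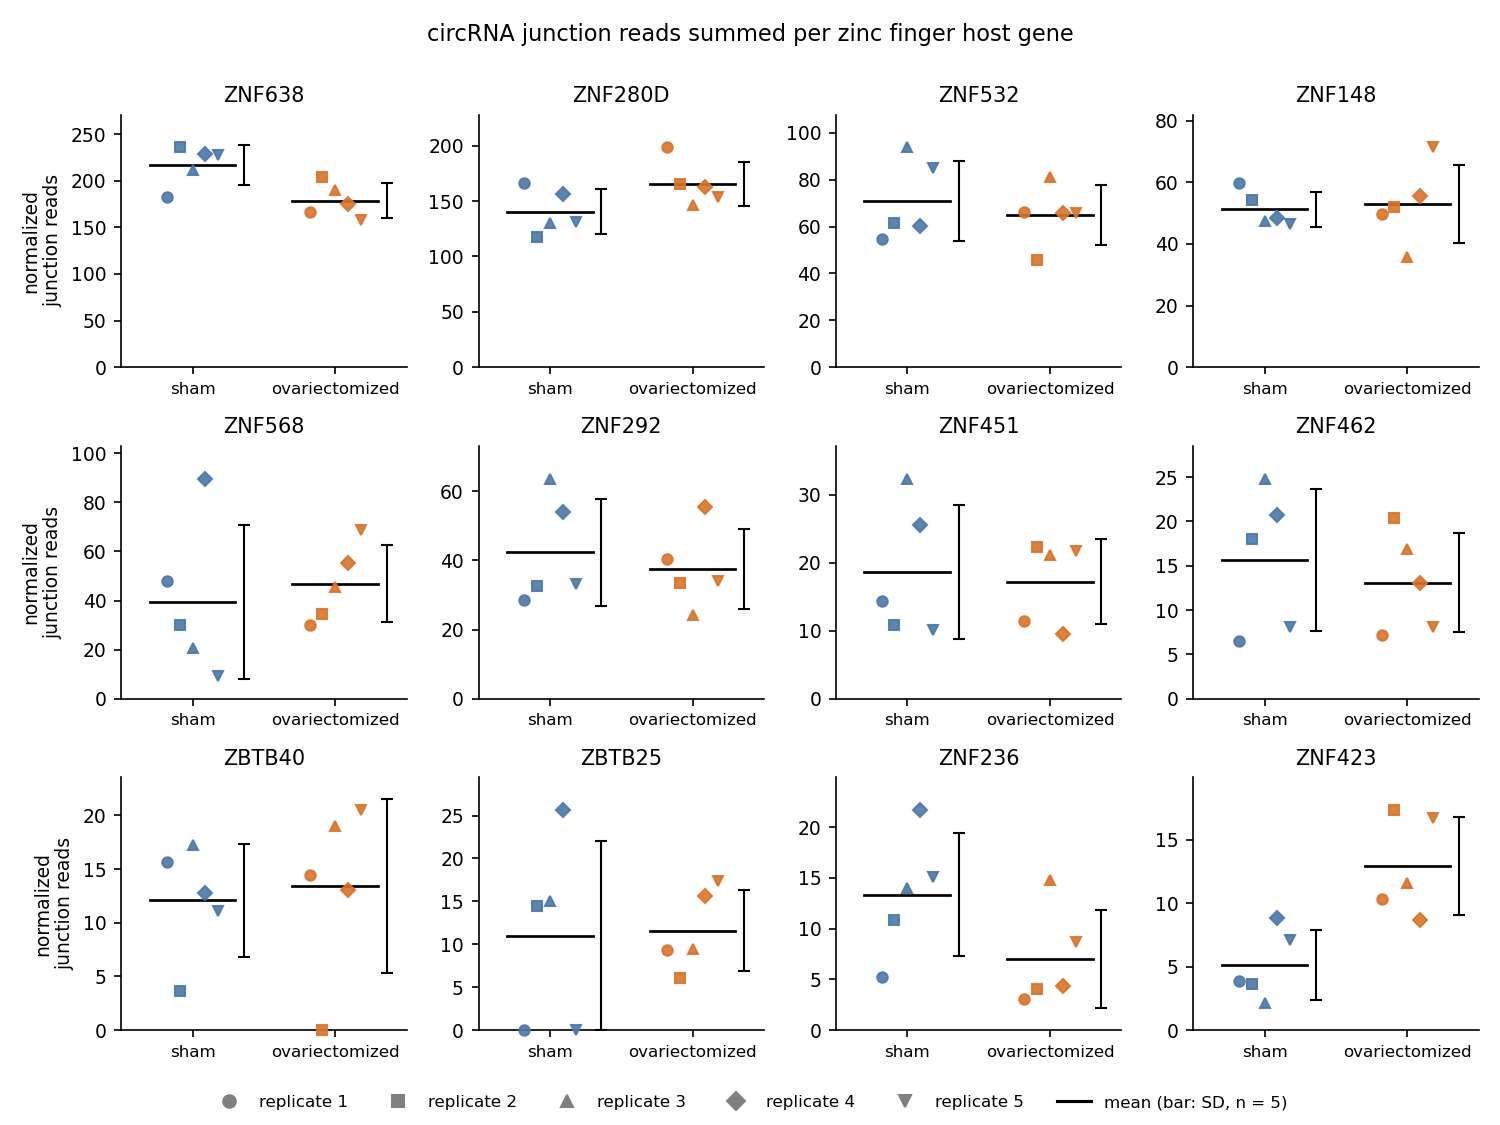
Normalized junction reads (vertical axes, each starting at 0) of the 12 zinc finger hosts with the most reads, 1 point per library, with a line at each group mean and a bar of 1 SD on each side (n = 5), sham beside ovariectomized. ZNF638 lies between 182.2 and 235.8 in sham and between 157.4 and 204.5 in ovariectomized libraries, and in each of the 12 panels the groups overlap.

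By count, zinc finger genes were hosts slightly less often than all genes, with no test of the difference. Among the ARS-UI_Ramb_v3.0 annotated genes, 43 of 326 protein-coding genes with such a symbol (13.2%) hosted a circRNA here, against 3378 of all 21300 protein-coding genes (15.9%). The 43 leave out those of the 48 hosts that are not protein-coding genes with such a symbol in that annotation. The hosts per chromosome that follow are counted over all 48. Chromosome 14, which carries 72 zinc finger genes in that annotation, gave 7 hosts with 736 reads (10.1% of the reads of the group). Chromosome 24, with 26 such genes, gave 0 hosts. Chromosome 3 gave 2000 reads, nearly all from ZNF638, and chromosome 7 gave 1688, from ZNF280D and ZBTB25.

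By their listed blocks, the circRNAs themselves were short. Their median spliced length, the sum of the blocks joined in the circle, was 279.5 bases (range 35 to 602), against 291.0 for all circRNAs. The genomic span between the ends had a median of 6668 bases, with a longest span of 49655 for ZNF423. There were 32 circRNAs of 1 block, 39 of 2, 26 of 3, 6 of 4 and 1 of 5 (ZNF317). A single listed block was given for 30.8% of them, against 23.4% of all circRNAs. The files called 100 exonic, 4 intronic and 0 intergenic. The same block can carry both labels: 58341085 to 58341366 of ZNF532 is intronic in novel_circ_0016059 and exonic in novel_circ_0016061. The intronic novel_circ_0012433 of ZNF461 and novel_circ_0009822 of ZNF704 likewise share a block with an exonic circRNA of their host. Both junction ends fell on the outer edge of a listed block in 67 (64.4%, against 68.8% of all circRNAs), and in the other 37 the deposited blocks do not reach one of the ends. For these 37, the spliced length and the number of blocks cover only what is listed, and the circle may hold more. Among them is the shortest, novel_circ_0008573 of ZBTB25, with 35 bases listed in a span of 9197. All circRNAs of 1 block are among the 37 except novel_circ_0000569, novel_circ_0006766 and novel_circ_0009823. Listing in all 10 libraries was found for 17 (16.3%, against 9.24% of all), and 37 (35.6%, against 37.5%) were seen in a single library.

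Blocks of 127 bases recurred across these genes. At 127 bases lay 16 of the 165 distinct blocks of zinc finger circRNAs (9.70%), the commonest length, against 124 of 15345 distinct blocks of all other circRNAs (0.808%), where the commonest length was 96. Of the 16, 14 came from KRAB genes, 1 block in each of 14 hosts: ZFP28, ZNF197, ZNF248, ZNF283, ZNF317, ZNF354A, ZNF354C, ZNF461, ZNF557, ZNF565, ZNF568, ZNF786, ZNF84 and ZNF846. That is 14 of the 56 distinct KRAB blocks (25%) and 14 of the 19 KRAB hosts, with 0 of 19 blocks in BTB genes. The others were in ZNF330 and ZNF451, 2 of the 89 distinct blocks of the hosts with no partner domain. Blocks of 96 bases made up 8 of the 56 KRAB blocks, in 7 hosts, among them ZFP28, ZNF461 and ZNF568, against 1.18% of the blocks of all other circRNAs. Human and mouse KRAB genes usually encode the A and B boxes of the domain on separate short exons. Whether the 127-base and 96-base blocks here are those exons was not tested, since the files name no exons. The length was singled out after block lengths had been seen, so it is a description with no test.

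In ZFP28, the 127-base block ran from 64596021 to 64596147 on chromosome 14 and formed the outer end of the only circRNA of that host, which had 3 blocks and 96 reads. In ZNF461 it ran from 46238566 to 46238692 on chromosome 14, inside a circRNA with blocks of 94, 127 and 96 bases. ZNF786 had it from 113391193 to 113391319 on chromosome 4, as 1 of 2 blocks of a circRNA of 67 reads. In ZNF568, where it ran from 46519325 to 46519451 on chromosome 14, it belonged to a circRNA of 5 reads and not to the leading one. Of the 17 circRNAs that hold such a block, in 4 it lay inside the circle, away from both junction ends.

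**Figure D2:**
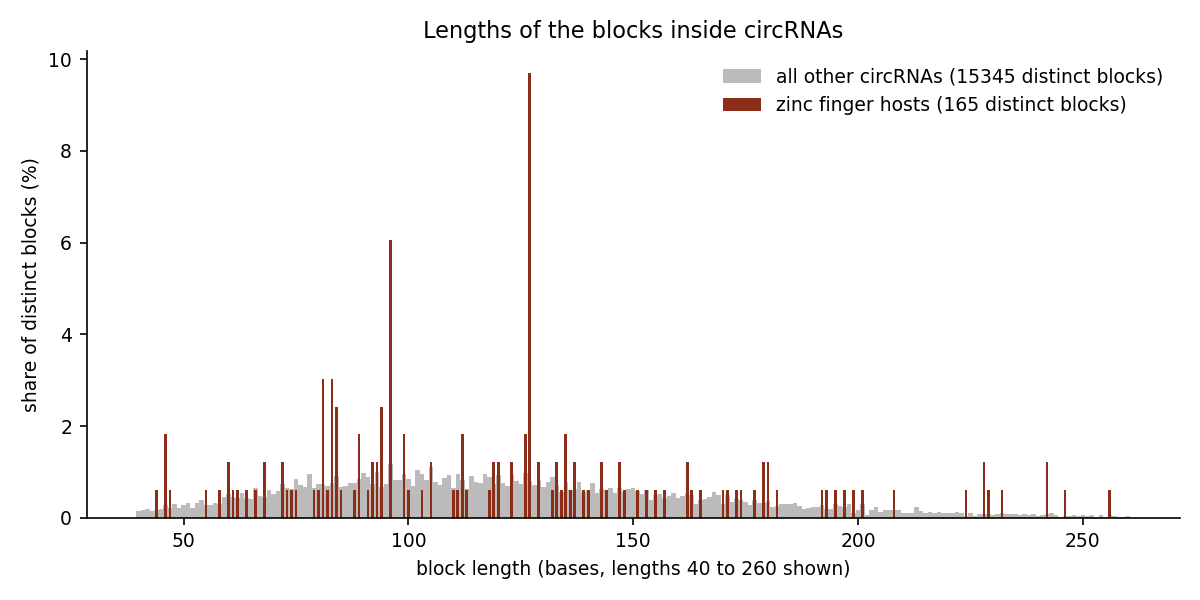
Share of distinct blocks (vertical axis, percent) by block length in bases (horizontal axis) in zinc finger hosts and in all other circRNAs. The zinc finger hosts stand highest at 127 bases, with 9.70% of 165 blocks, where the others have 0.808% of 15345.

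Of the 48 hosts, 31 gave 1 circRNA and 17 gave 2 or more. In the hosts with most reads, several circles shared a junction end. ZNF638 encodes a nuclear protein that binds nucleic acids and takes part in silencing of unintegrated retroviral DNA. It gave 8 circRNAs on chromosome 3, all on the plus strand. The leading one, novel_circ_0005692, spanned 93257268 to 93262116, joined blocks of 39, 293, 147 and 123 bases, and held 1196 of the 1988 reads of the host (60.2%). With 602 bases in its listed blocks it was the longest of the zinc finger circRNAs by this measure. It shared its downstream end with 3 others, and the 4 together held 79.6% of the reads. novel_circ_0005686 (269 reads, 93244523 to 93262116, 1 listed block of 123 bases) and novel_circ_0005701 (183 reads, 93305295 to 93310879, 1 listed block of 105 bases) followed. In both, the listed block lies at the downstream end, and no listed block reaches the upstream end.

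ZNF280D, a C2H2 gene, gave 8 circRNAs on chromosome 7. Its novel_circ_0008352, from 51789320 to 51792478, joined blocks of 147, 66 and 140 bases and held 1094 of 1566 reads (69.9%). novel_circ_0008348, with 222 reads, held the same 3 block lengths and a further upstream block of 46 bases. Of the 8 circRNAs, 4 ended at 51792478 and held 88.8% of the reads. ZNF532, whose protein works in a chromatin complex with ZNF592 and ZMYND8, gave 6 circRNAs on chromosome 23, and 5 of them, with 98.4% of 693 reads, ended at 58341366. Its novel_circ_0016061 joined blocks of 182 and 282 bases and held 567 reads (81.8%), and novel_circ_0016064, with a first block of 163 bases and the same second length, held 106.

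ZNF148, a factor that binds GC-rich promoters, gave the most circRNAs, 11 on chromosome 1, and had no dominant one. The reads were spread over novel_circ_0000572 (197 of 542 reads, 36.3%, blocks of 349, 137 and 81 bases), novel_circ_0000563 (166, 30.6%) and novel_circ_0000571 (120, 22.1%). Of the 11, 5 had 190608444 as their lower coordinate, the downstream end for this minus-strand gene, and they held 61.4% of the reads. At the other extreme were ZNF568, where novel_circ_0012437 held 443 of 462 reads (95.9%, blocks of 96, 80 and 68 bases, 46518966 to 46535233 on chromosome 14), and ZNF292, with its 410 reads on novel_circ_0009179 alone (136, 79 and 155 bases, 50030357 to 50033206 on chromosome 8). ZNF451 had 6 circRNAs, led by novel_circ_0014866 with 101 of 185 reads. ZNF462 had 3, of which novel_circ_0002968 took 133 of 143 reads. All 4 circRNAs of ZNF84 shared their lower coordinate, and so did both of ZBTB40.

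**Figure D3:**
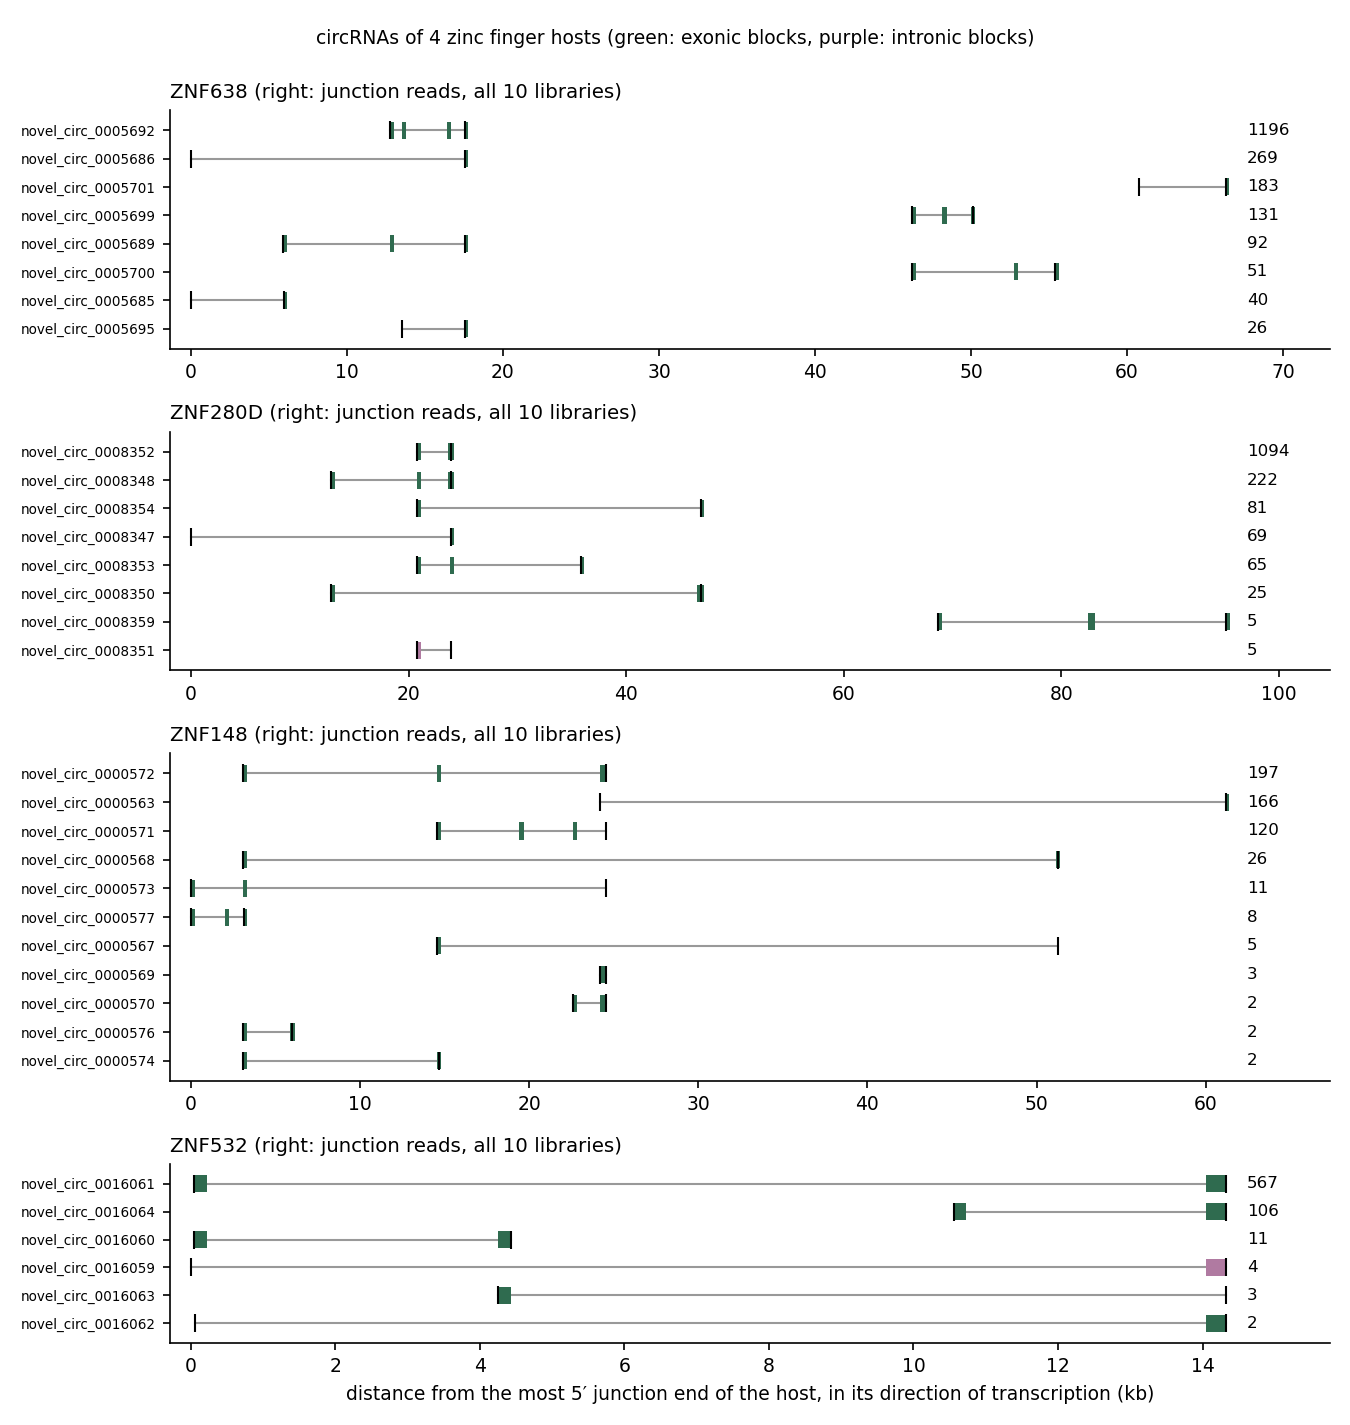
circRNAs of ZNF638, ZNF280D, ZNF148 and ZNF532, each on a line from its first to its last position, with junction reads at the right. The horizontal axes give distance in kb from the most upstream junction end in the direction of transcription. Blocks labeled exonic are green and blocks labeled intronic are purple, short blocks are widened to be visible, and black ticks mark the junction ends. In ZNF532, 5 of 6 circRNAs end at 1 position, and in ZNF148 the reads are spread over 3 circRNAs with 197, 166 and 120 reads.

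The part of a host's reads on its leading circRNA overlapped between the groups in the hosts with several circRNAs and the most reads. For ZNF638 the share was 58.1% ± 9.38 (SD, n = 5) in sham against 60.8% ± 5.95 (SD, n = 5) after ovariectomy. For ZNF280D it was 74.9% ± 5.39 (SD, n = 5) and 67.3% ± 8.09 (SD, n = 5), and the groups overlapped, with 70.4% to 84.3% against 54.8% to 74.8%. For ZNF532 it was 83.2% ± 6.01 (SD, n = 5) and 79.4% ± 6.71 (SD, n = 5). In ZNF568, the leading circRNA held every read in the 5 sham libraries and in 2 ovariectomized ones, and 89.2% in ovariectomized replicate 5. These shares were not tested.

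Non-junction reads, which the sources used here do not define, were taken as reads next to the circle's ends without a junction crossing. Zinc finger circRNAs had 11.6 of them per junction read in all, against 56.8 for all circRNAs. The median over zinc finger circRNAs was 16.3, against 23.5 over all circRNAs. Junction reads outnumbered non-junction reads in 6 zinc finger circRNAs (5.77%), against 240 of all 8721 (2.75%). The same held for 3 of 41 circRNAs (7.32%) of C2H2 genes with names outside the rule, whose median ratio was 12.5. It held for 0 of 49 circRNAs of genes that work with KRAB and BTB zinc finger proteins, where the median was 28.7. The leading circRNA of ZNF532 stood out, with 567 junction and 186 non-junction reads, a ratio of 0.328 that only 0.860% of all circRNAs went below. The leading circRNA of ZNF568 had 443 junction and 357 non-junction reads. The other 4 were all 3 circRNAs of ZNF461, a KRAB gene, with ratios of 0.50, 0.68 and 0.935, and the only circRNA of ZNF438, with 4 reads. The leading circRNAs of ZNF280D and ZNF292 had ratios of 1.75 and 2.32. At the other end, the highest ratio was 210.5, for novel_circ_0000574 of ZNF148, on only 2 junction reads. Next came novel_circ_0005685 of ZNF638 with 141.7, on 40 junction reads. ZNF644, which binds the histone methyltransferases EHMT1 and EHMT2, had 63.2, a ratio that 76.9% of all circRNAs went below. The second circRNA of ZNF532, which shares a junction end with the first, had a ratio of 5.34.

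**Figure D4:**
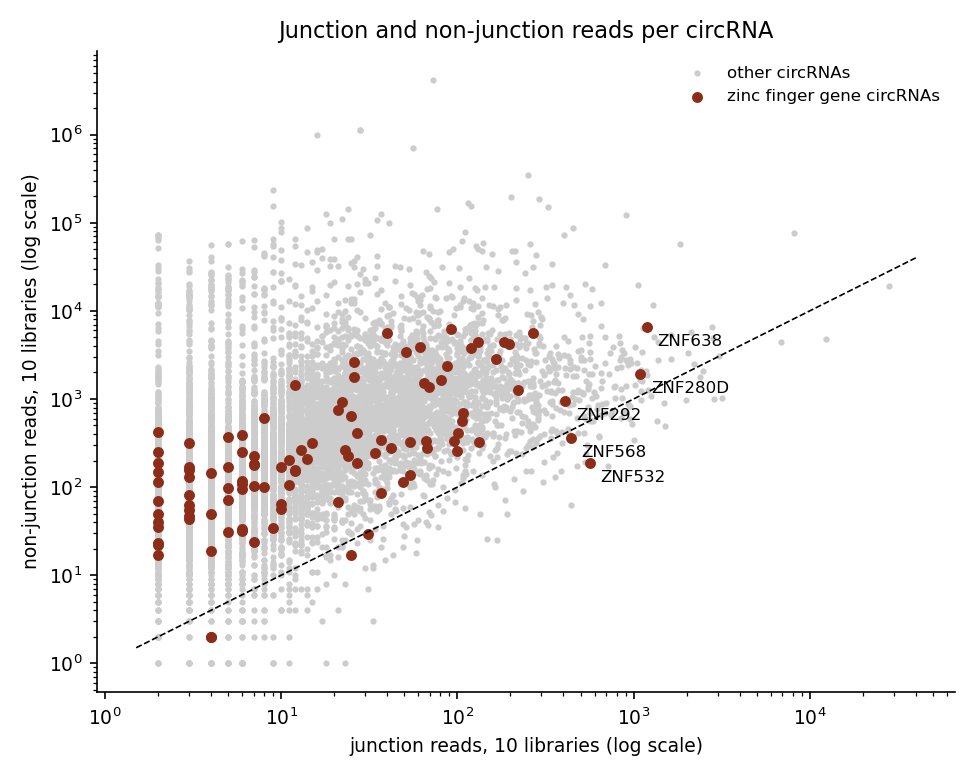
Junction reads (horizontal axis, log scale) against non-junction reads (vertical axis, log scale) of each circRNA, zinc finger circRNAs over all others, with a dashed line where both are equal. Of the zinc finger circRNAs 6 lie below the line, among them the leading circRNAs of ZNF532 (567 junction and 186 non-junction reads) and ZNF568 (443 and 357), and circRNAs without a non-junction read are not drawn.

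The libraries held between 35731 and 49887 junction reads in sham and between 39045 and 67061 in ovariectomized samples, with the most in ovariectomized replicate 5. Circles of SENP6, which are no members, took from 0.199% to 24.9% of sham reads and from 0.296% to 5.10% of ovariectomized reads, and so moved the share left to all other genes. The share of zinc finger circRNAs was 1.38%, 1.60%, 1.40%, 2.01% and 1.38% for sham replicates 1 to 5, and 1.61%, 1.70%, 1.74%, 1.69% and 1.74% for ovariectomized replicates 1 to 5. Sham replicate 4 was above every ovariectomized library and the other 4 sham libraries were below all of them. The means were 1.55% ± 0.272 (SD, n = 5) and 1.70% ± 0.0513 (SD, n = 5), a difference of 0.144 percentage points, which fell to 0.0081 points when SENP6 reads were left out of the total and came to 0.259 without sham replicate 4. On the normalized scale, which scales libraries by trimmed mean of M values, the sums were 713.5 ± 74.0 (SD, n = 5) and 704.9 ± 15.1 (SD, n = 5) reads. Between 38 and 55 zinc finger circRNAs were listed per sham library and between 41 and 51 per ovariectomized library. Non-junction reads per junction read over the zinc finger circRNAs were 14.0 ± 2.17 (SD, n = 5) in sham against 10.4 ± 2.67 (SD, n = 5) after ovariectomy, where the lowest value, 6.48, was in replicate 5. Its part in the comparisons of junction reads was not tested.

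No zinc finger host passed the test between ovariectomized and sham libraries. Junction reads were summed per host and compared with limma voom over all 753 hosts that passed the filter, with Benjamini-Hochberg adjustment and a threshold of 0.05. Of the 11 zinc finger hosts tested 0 passed, as did 0 of all 753 hosts (0%). At an unadjusted p under 0.05, 0 of the 11 were counted, against 44 of 753 (5.84%). There were 4 with a positive and 7 with a negative log2 fold change (ovariectomized over sham), against 351 (46.6%) and 402 (53.4%) of all hosts, and the median was -0.07 against -0.04. The smallest adjusted p of a zinc finger host was 0.766. The median standard error of these 11 was 0.42, from 0.18 for ZNF638 to 1.12 for ZBTB25. Host sums were also simulated from the means and spreads of all hosts in these libraries, with many hosts changed at once. There, 35.2% of 2-fold changes and 0.955% of 1.5-fold changes were recovered, so most changes of these sizes were missed. These rates are pooled over hosts of differing depth and spread, and do not give the rate for any single zinc finger host.

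For ZNF638, sham replicates 1 to 5 gave 140, 196, 196, 232 and 226 junction reads, and ovariectomized replicates 1 to 5 gave 161, 201, 180, 202 and 254. Normalized, 4 of the 5 sham libraries (211.2 to 235.8) were above every ovariectomized one (157.4 to 204.5), and sham replicate 1 (182.2) lay among them. The means were 217.2 ± 21.5 (SD, n = 5) and 178.7 ± 18.8 (SD, n = 5) normalized reads. The estimate was a log2 fold change of -0.29 ± 0.18 (SE), a 95% interval from -0.65 to 0.07 and a limma adjusted p of 0.766.

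For ZNF280D the counts, in the same order of replicates, were 128, 98, 121, 159 and 130 (sham) and 192, 163, 139, 188 and 248 (ovariectomized). After normalization its groups overlapped, with 117.9 to 166.6 in sham and 146.8 to 198.4 in ovariectomized libraries, and ovariectomized replicate 1 was the highest. On the log2 scale the difference was 0.24 ± 0.19 (SE), a 95% interval from -0.15 to 0.62 and a limma adjusted p of 0.821. These 2 most abundant hosts therefore had log2 fold changes of opposite sign, neither past the threshold. Scaled by library totals alone, which moves the median of all tested hosts from -0.04 to 0.11, ZNF638 was at -0.13 and ZNF280D at 0.40.

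ZNF532, ZNF148 and ZNF292 were near-level. ZNF532 counts were 42, 51, 87, 61 and 84 (sham) and 64, 45, 77, 76 and 106 (ovariectomized), or 70.9 ± 17.2 and 65.0 ± 12.6 normalized reads (SD, n = 5). ZNF148 counts were 46, 45, 44, 49 and 46 (sham), the narrowest range of the 6 leading hosts, and 48, 51, 34, 64 and 115 (ovariectomized), where the deepest library, replicate 5, was highest. ZNF292, whose circRNA has been studied in endothelial cells, gave counts of 22, 27, 59, 55 and 33 (sham) and 39, 33, 23, 64 and 55 (ovariectomized). In all 3 hosts the groups overlapped. The log2 fold changes were -0.13 ± 0.24 (SE) for ZNF532, 0.05 ± 0.24 (SE) for ZNF148 and -0.17 ± 0.30 (SE) for ZNF292, with limma adjusted p of 0.901, 0.949 and 0.901.

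ZNF568, the KRAB host with the most reads, is the relative of a mouse gene that represses a placental transcript of Igf2. It was the most uneven of the 6 leading hosts, with a coefficient of variation of 55.1% over the libraries against 14.1% for ZNF638. Its counts were 37, 25, 19, 91 and 9 (sham) and 29, 34, 43, 64 and 111 (ovariectomized). Both the highest (sham replicate 4, 89.6 normalized reads) and the lowest (sham replicate 5, 9.09) were sham libraries. The fitted log2 fold change came to 0.62 ± 0.47 (SE, 95% interval -0.39 to 1.62), limma adjusted p 0.821, and leaving out 1 library moved it from 0.19 (without sham replicate 5) to 1.07 (without sham replicate 4).

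The remaining 5 tested hosts had from 103 to 185 reads. ZNF451, the SUMO ligase gene, had 9 to 30 reads per sham and 11 to 35 per ovariectomized library, with a log2 fold change of -0.07 ± 0.42 (SE). ZNF462, a developmental chromatin factor, had 5 to 23 and 7 to 20 reads, with -0.34 ± 0.48 (SE), which was -0.089 without sham replicate 3. Among the BTB genes, ZBTB40 had 3 to 16 reads in sham and was not listed in ovariectomized replicate 2, with 14 to 33 in the other 4, and its log2 fold change was -0.07 ± 0.79 (SE). ZBTB25, a repressor in T cells, was not listed in sham replicates 1 and 5 and gave 12, 14 and 26 reads in the other 3, against 9, 6, 9, 18 and 28 after ovariectomy. Its means were near-equal, 11.0 ± 11.0 and 11.6 ± 4.72 normalized reads (SD, n = 5), while the fitted log2 fold change, which is taken on a log scale where the 0 values weigh heavily, was 1.47 ± 1.12 (SE). It ranged from 0.40 (without sham replicate 5) to 2.12 (without sham replicate 4) when 1 library was left out, and was -0.15 with a replicate block. ZNF236 counts were 4, 9, 13, 22 and 15 (sham) and 3, 4, 14, 5 and 14 (ovariectomized), with 13.4 ± 6.03 and 6.99 ± 4.85 normalized reads (SD, n = 5). Its estimate, -1.03 ± 0.71 (SE) on the log2 scale with a 95% interval from -2.50 to 0.43, had a limma adjusted p of 0.814, the second lowest of the 11.

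**Figure D5:**
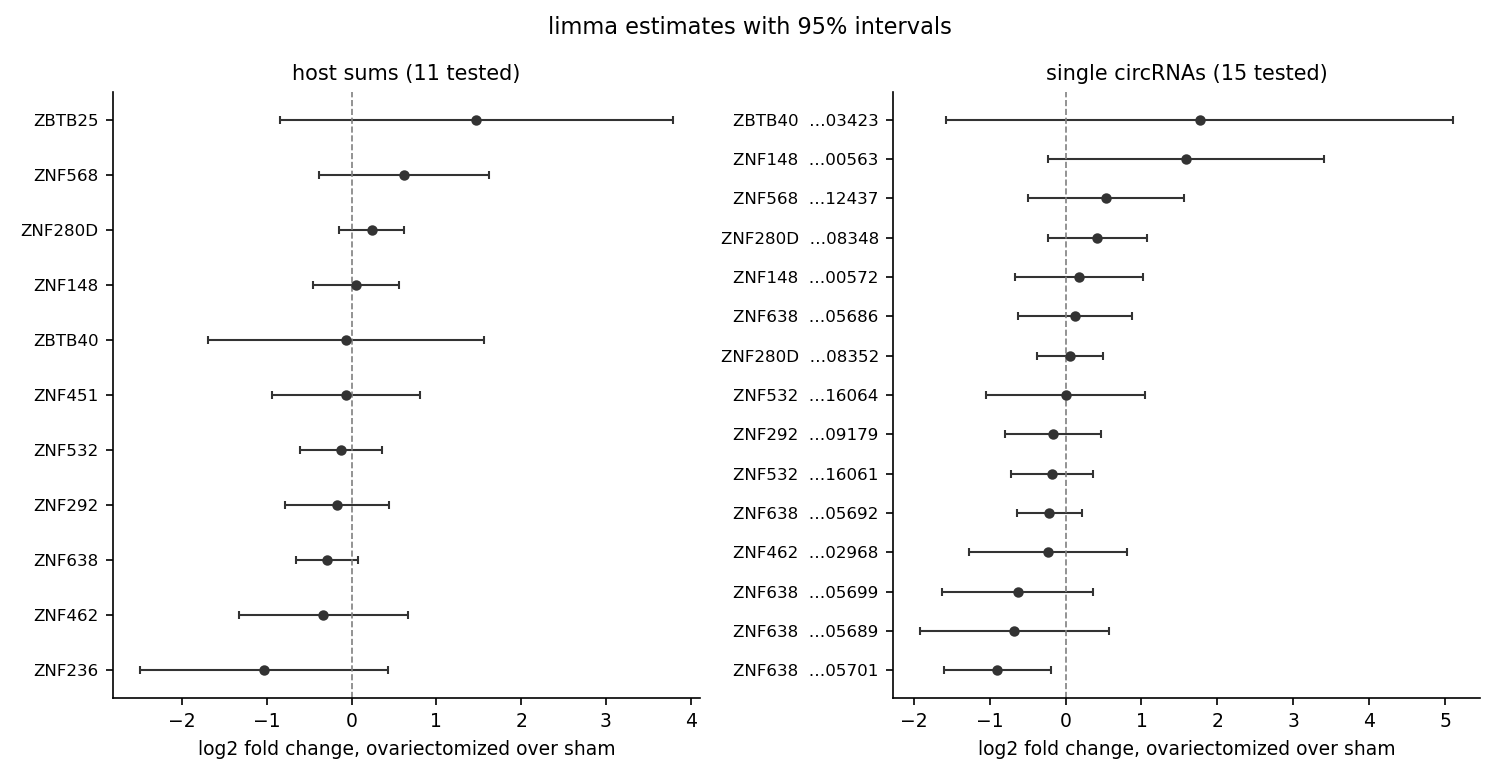
limma log2 fold changes of ovariectomized over sham (horizontal axis) with 95% intervals for the 11 tested zinc finger hosts and the 15 tested zinc finger circRNAs. The interval of every host crosses 0, and of the circRNAs only that of novel_circ_0005701 of ZNF638, at -0.90, does not.

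No single zinc finger circRNA passed either. Of 738 circRNAs tested with limma voom 0 (0%) passed, and so did 0 of the 15 zinc finger circRNAs among them, 8 with a positive and 7 with a negative log2 fold change, against 47.6% and 52.4% of all 738. The median was 0.00, against -0.04 over all 738. One had an unadjusted p under 0.05, against 42 of 738 (5.69%). This was novel_circ_0005701 of ZNF638, with counts of 17, 20, 22, 28 and 20 (sham) and 16, 7, 17, 22 and 14 (ovariectomized). After normalization the groups were separate, from 20.2 to 27.6 in sham and from 7.12 to 19.1 in ovariectomized libraries. The estimate was -0.90 ± 0.33 (SE) on the log2 scale, with a limma p of 0.0163 and an adjusted p of 0.781. It was the only 1 of 41 zinc finger circRNAs listed in 5 or more libraries whose groups did not overlap, while 0.595% of the 2690 circRNAs so listed had every sham above every ovariectomized library and 0.892% did not overlap in either direction. Of the 24 zinc finger hosts listed in 5 or more libraries, 0 had groups that did not overlap, against 1.17% of 1790 hosts. The leading circRNA of ZNF638 had a log2 fold change of -0.21 ± 0.20 (SE), that of ZNF280D 0.06 ± 0.20 (SE) and that of ZNF532 -0.18 ± 0.26 (SE). The log2 fold change of the ZNF280D host sum was thus larger than that of its leading circle, and novel_circ_0008348 of the same gene had 0.42 ± 0.31 (SE), or 0.26 without ovariectomized replicate 5. For novel_circ_0000563 of ZNF148, which was not listed in sham replicate 5, the value was 1.59 ± 0.85 (SE) with a limma p of 0.0825, and it was 0.34 without that library.

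ZNF423 lay just under the filter. The gene encodes a many-fingered factor that takes part in BMP signaling and in the commitment of fat cell precursors. The fifth highest of its scaled read counts was 9.00, against 10.5 for ZNF236, the host just above the limit. Its only circRNA, novel_circ_0012299, spanned 17732386 to 17782040 on chromosome 14 with blocks of 201 and 60 bases and was listed in all 10 libraries. Its counts were 3, 3, 2, 9 and 7 (sham) and 10, 17, 11, 10 and 27 (ovariectomized). The normalized values overlapped only by sham replicate 4 (8.86) against ovariectomized replicate 4 (8.67), and the means were 5.12 ± 2.75 and 12.9 ± 3.88 (SD, n = 5). With a filter of 2 or more reads in at least 5 libraries, the limma log2 fold change of the host was 1.33 ± 0.79 (SE) and the adjusted p was 0.716. ZNF862, a KRAB gene, gave 0, 7, 3, 9 and 2 reads in the sham libraries and was listed in none of the ovariectomized libraries. Its reads came to 21 in all, and a circRNA with 1 read in a library may be missing from the list. Of the zinc finger hosts, 5 were listed only in sham libraries, with at most 21 reads each. Another 8 were listed only in ovariectomized libraries, with at most 7 reads each. The same count was not made over all hosts. With the same looser filter 0 of 24 zinc finger hosts and 0 of 41 zinc finger circRNAs passed, against 0.0559% of 1790 hosts and 0.149% of 2690 circRNAs. With no filter 0 of 48 and 0 of 104 passed, against 0.204% of 3435 hosts and 0.161% of 8721 circRNAs. ZNF461 was listed in sham replicates 1 and 3 (4 and 3 reads) and in ovariectomized replicates 1, 3 and 4 (18, 23 and 12 reads).

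In the authors' deposited table a total of 4 of the 104 zinc finger circRNAs had a p-value under 0.05 (3.85%, against 118 of all 8721, 1.35%), and each had an adjusted p of 0.966 there. The authors' deposited table gives novel_circ_0012299 of ZNF423 a mean of 12.7 in ovariectomized and 4.95 in sham samples (p = 0.0188), and novel_circ_0008354 of ZNF280D 10.8 and 3.58 (p = 0.0168). For 2 others the authors' deposited table has the higher mean in sham: novel_circ_0005700 of ZNF638 with 9.08 against 1.78 (p = 0.0285) and novel_circ_0005860 of ZNF862 with 4.32 against 0 (p = 0.0102). Of these, novel_circ_0008354 gave counts of 5, 4, 5, 0 and 2 (sham) and 12, 7, 6, 17 and 23 (ovariectomized), and its normalized values overlapped only at sham replicate 1 (6.51) against ovariectomized replicate 3 (6.33). novel_circ_0005700 gave 6, 14, 13, 7 and 2 (sham) and 6, 3, 0, 0 and 0 (ovariectomized). Of the 8 circRNAs of ZNF638, 6 had the higher mean of normalized reads in sham, the leading one included. Of these, novel_circ_0005699 (13.7 in sham, 13.2 in ovariectomized) and novel_circ_0005695 (2.47 and 2.21) were near-equal. The 8 come from the same libraries and are not replicates of each other. Over all 738 tested circRNAs, 52.4% had a negative log2 fold change.

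Genes that work with KRAB and BTB zinc finger proteins were hosts as well. Of 35 such cofactor genes 13 were listed, with 49 circRNAs and 4350 reads, and 3 were tested, 1 with a positive and 2 with a negative log2 fold change (median -0.20) and 0 past the threshold. MORC3, a nuclear ATPase that takes part in silencing, held 3171 of the reads, with a log2 fold change of -0.20 ± 0.19 (SE). ATRX, a chromatin remodeler, had 603 reads and 0.31 ± 0.24 (SE). EHMT1 had 390 and -0.48 ± 0.32 (SE), and NCOR1 had 51 and was not tested. TRIM28 and SETDB1 were not listed as hosts. Of 85 C2H2 genes with names outside the rule, 21 were hosts, with 41 circRNAs and 4675 reads. ZEB1 (3629 reads, log2 fold change -0.24 ± 0.20, SE) and AEBP2 (647 reads, 0.13 ± 0.23, SE) were tested, with 0 past the threshold. HIVEP2 had 70 reads, and KLF12 had 65, of which 52 were in ovariectomized replicate 1 and 13 in sham replicate 5.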

How the data were processed

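Junction reads of circRNAs were taken from 5 sham and 5 ovariectomized libraries. HISAT2 is named in the submitters' processing notes, and no source used here gives the circRNA caller, the build or the annotation. The authors deposited whole-number counts of junction and non-junction reads, packed in lists with sample names, for 11297 circRNAs. A junction count in at least 1 of the 10 libraries is given for 8721. The lists also carry 10 names of samples outside the series, which were left aside. A library without an entry was entered as 0 reads. The second table holds, per the file headers, the authors' group means of normalized read signal, log2 fold changes (sham relative to ovariectomized), p-values and adjusted p-values, copied as deposited.

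Starts were counted from 1. Chromosome numbers came from host gene IDs looked up in ARS-UI_Ramb_v3.0 (8431 of 8432 circRNAs matched), and none of its coordinates are printed. All 104 zinc finger circRNAs have their gene ID there, 97 with the same symbol. Sequences are not shown.

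Reads were summed per host and tested with limma voom (limma 3.58.1, statmod 1.5.0, R 4.3.3), with libraries scaled by trimmed mean of M values (fractions of 0.3 of log ratios and 0.05 of abundances trimmed), robust empirical Bayes, group as the only term, and Benjamini-Hochberg adjustment over all hosts tested. Normalized reads are junction reads over each library's scaled size, set to a geometric mean of 1 over the libraries. The fit was tested on 10 simulated sets per fold size. At 4-fold, 88.2% of changed hosts were recovered among a median of 733 tested. At most 4.88% of counts were equal between libraries of a group. Alternatives covered scaling, filters, variance model, a replicate block and leaving out each library.

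Named hosts are those tested, the 15 with the most reads, those with 5 or more circRNAs, those known from circRNA work, and the hosts beside the filter, with up to 3 circRNAs each. ZNF862, ZNF461 and the circRNAs with a low authors' p were added after their values were seen. Members and lists were chosen with earlier results of these data known, and the domain classes were written after some block lengths had been seen.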

Additional observations from a re-analysis of the deposited data

Results flagged for a closer look

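Within the groups, 3 of 36 sets of 5 libraries for the named zinc finger hosts held 1 library whose gap to the next exceeded 0.71 of the whole range. For normally distributed values chance gives about 1 in 20. ZFP28 had 21.1 normalized reads in ovariectomized replicate 5 and 2.11 to 6.20 in the other 4 ovariectomized libraries. ZNF330 had 17.9 in ovariectomized replicate 3 and 5.58 to 7.12 in the others. ZBTB44, a BTB gene with 9 reads in all, had 3.05 in ovariectomized replicate 2 and was not listed in the other ovariectomized libraries. A host listed in 1 library of a group meets this measure by construction, so the value for ZBTB44 carries no weight and the chance rate does not apply to it. All 3 hosts are under the filter for testing.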

How the results depend on the processing

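Under 18 alternatives, 0 zinc finger hosts and 0 zinc finger circRNAs passed the threshold of 0.05, with smallest limma adjusted p of 0.188 (ZNF862, no filter) for a host and 0.0701 (novel_circ_0005860 of ZNF862, no filter) for a circRNA. Over all hosts the looser filter called 1 of 1790 and no filter 7 of 3435. Library totals alone moved the median log2 fold change of all hosts from -0.04 to 0.11 and that of the 11 zinc finger hosts to 0.03, with 7 positive and 4 negative, and turned ZNF532 to 0.025, ZNF451 to 0.074 and ZBTB40 to 0.032. Without a filter, novel_circ_0008352 was at -0.029. Leaving out ovariectomized replicate 5 moved ZNF568 to 0.44. Leaving out each library moved the median of the zinc finger hosts between -0.20 and 0.07 (0.07 without sham replicate 3) and their share difference between 0.100 and 0.259 points. It turned the sign of ZNF532 (-0.20 to 0.023), ZNF148 (-0.083 to 0.17), ZNF292 (-0.33 to 0.037), ZNF451 (-0.22 to 0.19), ZBTB40 (-0.75 to 0.59), novel_circ_0005686 (-0.094 to 0.42), novel_circ_0009179 (-0.32 to 0.038), novel_circ_0008352 (-0.020 to 0.17), novel_circ_0002968 (-0.53 to 0.044), novel_circ_0016061 (-0.27 to 0.012), novel_circ_0016064 (-0.11 to 0.27) and novel_circ_0000572 (-0.12 to 0.41). None of these had passed the threshold, and the cause was not tested.

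Over the 738 tested circRNAs, the deviations of libraries with the same replicate number correlated by 0.0509, 0.190, 0.0522, 0.112 and -0.117 for replicates 1 to 5. With only 2 of the 5 (replicates 2 and 4) at 0.112 or above, the numbers were not taken to pair the libraries, and 3 of 10 libraries correlated best with their own number. The SENP6 share did follow the number: in both groups it was highest in replicates 1, 3 and 5 (10.5% to 24.9% in sham, 2.83% to 5.10% in ovariectomized) and at most 0.312% in replicates 2 and 4. With the replicate block, 0 zinc finger hosts and 0 zinc finger circRNAs passed, against 1 of all hosts and 3 of all circRNAs, and the median of the 11 hosts was -0.13. The share difference of 0.144 points cannot change with the block, since each number has 1 library in each group. The block moved ZNF568 to 0.37 and novel_circ_0000563 to 0.33, and turned ZBTB40 to 0.21, ZBTB25 to -0.15 and novel_circ_0016064 to -0.082. Depth limits these tests: 37 hosts were too low to test, and a library with 1 read of a circRNA cannot be told from one with 0.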
